A study of Mus musculus with 3 samples.

Results

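Cdh1, Cdh2, Cdh3, Epcam, Vim, Dsp and Jup are 7 of the 32285 genes counted in single-cell RNA-seq libraries of mouse blastoids. They were chosen by their symbols, as genes of cell adhesion and of the choice between an epithelial and a mesenchymal cell form. All 7 were detected in every library and passed the filter on low counts. Blastoids are models of the blastocyst built from cultured stem cells. Here they came from the E14 embryonic stem cell line, kept with LIF and 10 µM T0901317, an activator of the liver X receptors, of which Nr1h2 encodes one. All libraries share that treatment and the same media. About 5 cells per microwell were seeded for 24 hours with rhFGF4 (12.5 ng/mL), heparin (0.5 µg/mL), Y-27632 (2 µM) and CHIR99021 (3 µM), and then grown with rhFGF4, heparin, CHIR99021, 5 ng/mL BMP4 and 0.5 µM A83-01 until harvest on day 5. There were 3 libraries, titled Type III, Type II and Type I, 1 of each; what sets the types apart is not said in the labels.

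Classical cadherins join cells by binding the same cadherin on a neighbour and are tied to actin inside the cell through catenins. E-cadherin (Cdh1) holds the cells of the blastocyst together, P-cadherin (Cdh3) is its close relative in epithelia, and N-cadherin (Cdh2) is typical of mesoderm and neural tissue. When mesoderm leaves the epiblast at the primitive streak, Cdh1 gives way to Cdh2, vimentin (Vim, an intermediate filament protein of mesenchymal cells) comes up, and transcription factors such as Snai1 bind E-boxes of epithelial genes. Desmosomes are a second kind of junction, in which desmoplakin (Dsp) and plakoglobin (Jup) tie desmosomal cadherins to keratin filaments. Epcam is a homophilic membrane protein of epithelia and pluripotent cells.

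Barcodes with at least 10000 UMIs (counted transcript molecules) and at most 20% mitochondrial UMIs were kept: 272 of 2310 in Type III, 1992 of 9265 in Type II and 1405 of 6813 in Type I. They held 82.2%, 82.4% and 86.9% of the 25443474, 106445641 and 90126648 UMIs of Types III, II and I, at median depths of 71540, 41491 and 52224 UMIs. Each barcode was placed by other genes than those described here. Barcodes with both T and Fgf8 were called streak-like. The rest were placed in the following order by CPM, here counts scaled to the total UMIs of each barcode. Visceral endoderm had Ttr, Rbp4, Apoa1 and Apoa2 together at 1000 CPM or more. Early primitive endoderm or PrE had Gata6, Sox17 and Gata4 together at 100 CPM or more. Trophectoderm or TE had Krt8, Krt18 and Krt19 together at 800 CPM or more, and epiblast had Pou5f1 at 150 CPM or more. This gave 539 TE, 1020 visceral endoderm, 687 early PrE, 168 streak-like and 1004 epiblast barcodes, and 251 that met no rule. Type III held only 19 visceral endoderm and 6 streak-like barcodes, under the 20 needed to enter the tests, so comparisons of those states rest on Types II and I. Marker genes that no rule used were checked against these names: 7 of the 7 TE markers tested were higher in TE than in epiblast, 8 of 8 early PrE markers were higher in early PrE, 8 of 8 visceral endoderm markers were higher in visceral endoderm, 7 of 8 streak markers were higher in streak-like sums, and the 8 epiblast markers were lower in TE, visceral endoderm and early PrE. The same lists also rose elsewhere. Over epiblast, 6 of 7 TE markers were higher in early PrE and 1 lower, and in visceral endoderm 4 and 2. Early PrE markers were higher in 8 of 8 in visceral endoderm and 7 of 8 in streak-like sums. Visceral endoderm markers were higher in 5 of 8 in early PrE. Of all genes, 27.1% were higher in TE, 35.6% in early PrE, 36.9% in visceral endoderm and 17.2% in streak-like sums. The streak-like sums also had all 8 visceral endoderm markers higher than epiblast, at 10.04, 113.5 and 927.2 CPM summed in Types III, II and I. Of the streak-like barcodes, 0 in Type III, 18 in Type II and 11 in Type I also met an endoderm or TE rule. Counting every rule, 18 of 19, 558 of 563 and 431 of 438 visceral endoderm barcodes of Types III, II and I met another one. For early PrE these were 30 of 45, 234 of 372 and 180 of 270, and for TE 10 of 72, 27 of 264 and 15 of 203. Streak-like barcodes gave 3 of 6, 50 of 110 and 26 of 52. The split of these states thus depends in part on the order of the rules. Deposited libraries shared 151 (III and II), 209 (III and I) and 155 (II and I) barcode sequences, and among kept barcodes 0, 0 and 1.

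Values are UMIs summed over the barcodes of a state in a library, scaled as CPM to the UMIs of that sum. They are compared for 1 gene between states, never between genes. Fold changes come from edgeR's quasi-likelihood test on these sums over 14035 genes, which blocks on the library and scales by TMM, and are called, after Benjamini-Hochberg adjustment, at an adjusted p under 0.05. The 3 libraries are different types standing in for replicates. The block takes out shifts shared by all states of a library. So p sets the mean difference between states against counting error and the variation among libraries, with 1 estimate of the spread for all states. A large share of all genes differed between states, so a call alone sets no gene apart and sizes matter more.

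**Figure D1:**
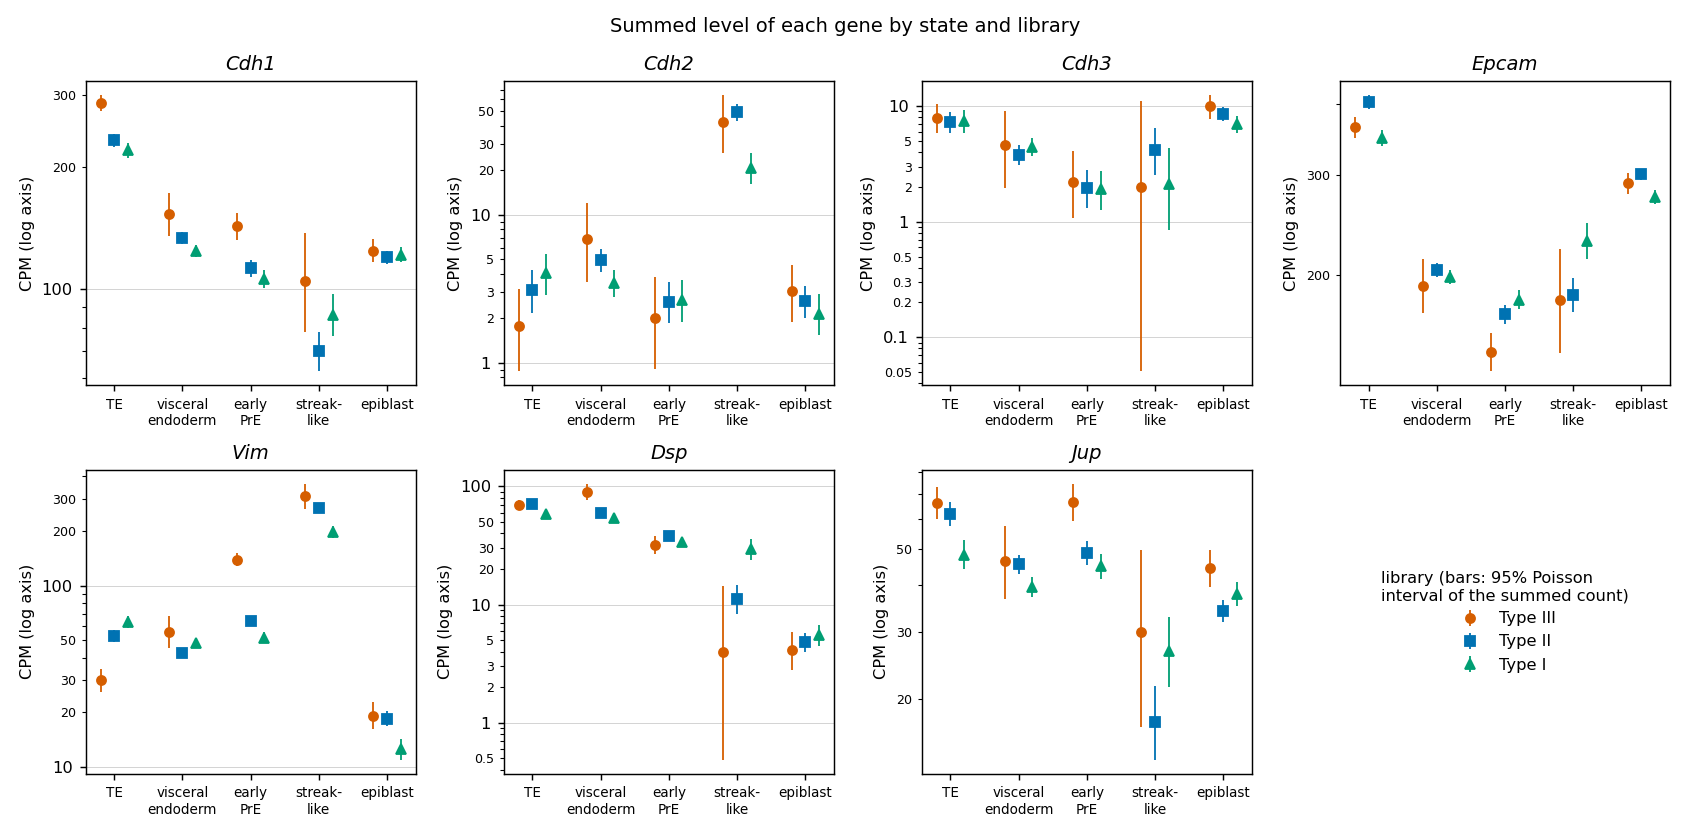
CPM (log axis) of each gene in 5 states of the Type III, Type II and Type I libraries, with the 95% Poisson interval of the summed count. Streak-like sums have the highest Cdh2 (20.8 to 49.3 CPM) and Vim (196.3 to 311.2 CPM), and epiblast the lowest Vim (12.5 to 19.2 CPM).

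The E-box letters that Snai and Zeb factors bind were looked for in the promoters of Epcam, Dsp, Vim and Jup. The window ran from 250 bases before to 50 bases after the start. No promoter sequence was at hand for Cdh1, Cdh2 or Cdh3, so these were not searched. The promoters of Epcam, Dsp and Vim are printed here. In the streak-like state Epcam, with matches, was lower than in epiblast, but Dsp, with a match, was higher. Vim, with 0, was higher too, and Jup, with 0, was lower. The sequences are RefSeq promoters on mm10. The capitals mark CAGGTG on either strand (CACCTG where it lies on the other one). The Epcam sequence is chr17:87635729-87636028 (+ strand), with matches starting at -187 and -19 from the start; the Dsp sequence is chr13:38151044-38151343 (+ strand), with 1 match at 3; the Vim sequence is chr2:13574061-13574360 (+ strand), with 0.
Epcam: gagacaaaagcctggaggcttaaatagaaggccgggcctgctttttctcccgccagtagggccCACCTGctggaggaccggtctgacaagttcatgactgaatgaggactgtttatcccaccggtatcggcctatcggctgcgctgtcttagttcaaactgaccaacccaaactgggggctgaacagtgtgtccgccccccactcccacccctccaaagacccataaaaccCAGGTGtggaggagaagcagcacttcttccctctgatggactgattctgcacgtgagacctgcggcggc
Dsp: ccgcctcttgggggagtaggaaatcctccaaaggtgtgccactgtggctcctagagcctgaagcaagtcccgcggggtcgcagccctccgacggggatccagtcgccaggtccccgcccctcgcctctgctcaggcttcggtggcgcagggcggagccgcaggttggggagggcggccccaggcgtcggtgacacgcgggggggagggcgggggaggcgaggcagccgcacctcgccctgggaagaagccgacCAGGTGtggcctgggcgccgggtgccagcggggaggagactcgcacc
Vim: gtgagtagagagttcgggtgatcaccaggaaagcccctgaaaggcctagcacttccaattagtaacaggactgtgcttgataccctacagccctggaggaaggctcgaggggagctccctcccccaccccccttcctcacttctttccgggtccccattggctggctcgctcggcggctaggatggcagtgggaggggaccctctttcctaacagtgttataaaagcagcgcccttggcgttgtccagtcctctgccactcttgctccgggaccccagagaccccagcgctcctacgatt
CAGGTG on either strand was present in 20.2% of 32851 promoters of this length. A match describes letters and is not a bound site, and 0 matches say only that these letters are not in this window.

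Cdh1 was highest in TE and lowest in the streak-like state. It reached 287.0 CPM in TE of Type III, 232.0 in Type II and 219.3 in Type I, against 124.0, 119.4 and 121.2 CPM in epiblast, and the groups did not overlap. The fold change of TE over epiblast was 0.66 ± 0.08 on the log2 scale (SE; adjusted p = 8.288e-06, edgeR). In visceral endoderm Cdh1 stood at 152.8 CPM in Type III, 133.1 in Type II and 124.1 in Type I, near its epiblast level (0.01 ± 0.09, adjusted p = 0.927). Early PrE had 142.3, 112.2 and 105.4 CPM in Types III, II and I, so its libraries lay on both sides of the epiblast values. The small difference from epiblast (-0.19 ± 0.08, adjusted p = 0.047) was lost without Type I (-0.11) or without Type II (-0.17), and with plain totals it was -0.04. The order of levels was TE, visceral endoderm, epiblast, early PrE and streak-like, and of these neighbours only epiblast and early PrE overlapped among the libraries tested.

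In the streak-like state Cdh1 fell to 70.0 CPM (Type II) and 86.1 CPM (Type I), against 119.4 and 121.2 CPM in epiblast. The 6 streak-like barcodes of Type III gave 104.4 CPM (95% Poisson interval 78.0 to 136.9), against 124.0 CPM in epiblast. The fold change was -0.69 ± 0.10 (adjusted p = 0.000178, edgeR, Types II and I). Without Type II, which leaves 1 streak-like sum assumed to vary like the other states, it was -0.52 with adjusted p = 0.0707. After thinning each barcode to 10000 UMIs, Cdh1 was detected in 66.7%, 38.2% and 42.3% of streak-like barcodes of Types III, II and I, against 57.6%, 60.4% and 60.1% of epiblast barcodes. In barcodes under 2000 UMIs Cdh1 stood at 102.0, 91.7 and 113.4 CPM in Types III, II and I. These barcodes serve as a rough guide to free RNA, though whether they are cells or empty drops is not known. Their Cdh1 values were of the size of its streak-like levels or above them. The share of free RNA in kept barcodes was not measured, so its part in this detection was not tested.

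Cdh2, the cadherin that mesoderm takes up, was high in the streak-like state and low in the other 4. Streak-like sums had 42.2 CPM in Type III, 49.3 in Type II and 20.8 in Type I, against 3.04, 2.61 and 2.16 CPM in epiblast. Every streak-like value lay above every epiblast value, and above the 1.77 to 6.87 CPM of TE, visceral endoderm and early PrE. The fold change over epiblast was 3.63 ± 0.30 (adjusted p = 1.277e-06, edgeR, Types II and I); without Type II it was 2.78 (adjusted p = 0.0071). With streak-like barcodes that meet another lineage rule left out it was 3.78. In barcodes under 2000 UMIs Cdh2 stood at 4.46, 1.79 and 3.57 CPM in Types III, II and I, of the size of the values outside the streak-like state. The part of free RNA in those values was not tested. Cdh2 did not pass the test in TE (-0.02 ± 0.34), early PrE (-0.14 ± 0.34) or visceral endoderm (0.55 ± 0.31) over epiblast, with adjusted p = 0.976, 0.730 and 0.125. An annotated antisense gene, Gm15485, overlaps Cdh2.

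Cdh3 was low in every state and lowest in early PrE. Early PrE had 2.23, 1.95 and 1.90 CPM in Types III, II and I, against 9.96, 8.59 and 6.96 CPM in epiblast, with no overlap. The fold change was -2.20 ± 0.20 (adjusted p = 2.541e-07, edgeR). Visceral endoderm had 4.58, 3.80 and 4.43 CPM, lower than epiblast (-1.09 ± 0.18, adjusted p = 7.013e-05) and higher than early PrE (1.10 ± 0.22, adjusted p = 0.00406), both on Types II and I. The rise over early PrE was lost without Type I (0.95, adjusted p = 0.0726) or without Type II (1.26, adjusted p = 0.112). Streak-like sums rested on 1, 19 and 7 UMIs (2.01, 4.18 and 2.11 CPM), and the fold over epiblast was -1.40 ± 0.28 (adjusted p = 0.00176). That call was lost after thinning (-0.63, adjusted p = 0.477). In TE, at 7.87, 7.24 and 7.46 CPM, the values lay inside the epiblast range. The TE fold over epiblast of -0.50 ± 0.16 (adjusted p = 0.0175) depended on the scaling, with -0.15 and adjusted p = 0.418 under plain totals, and was lost without Type II (-0.44, adjusted p = 0.17) or Type III (-0.42, adjusted p = 0.078).

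Cdh1 and Cdh3 are neighbours in the genome. On mm10 Cdh3 lies at chr8:106510891-106557297 and Cdh1 at chr8:106603351-106670246, both on the + strand and 46053 bases apart with 2 annotated genes between them. Their levels parted in the states: in early PrE Cdh3 stood at -2.20 relative to epiblast on the log2 scale and Cdh1 at -0.19, and in TE Cdh1 stood at 0.66 and Cdh3 at -0.50. Whether the fold changes of the pair differ was not tested.

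Epcam was highest in TE and epiblast and lower in the other states. Early PrE had 146.1 CPM in Type III, 170.4 in Type II and 180.6 in Type I, against 290.0, 300.5 and 274.3 CPM in epiblast. The groups did not overlap, and the fold change was -0.95 ± 0.09 (adjusted p = 2.678e-07, edgeR). Visceral endoderm had 191.1, 203.8 and 198.1 CPM (-0.70 ± 0.10 over epiblast, adjusted p = 1.807e-05, Types II and I). Streak-like sums had 180.7, 184.2 and 229.5 CPM, and the fold over epiblast was -0.64 ± 0.10 (adjusted p = 0.000335); without Type II it was -0.47 with adjusted p = 0.0851. Epcam was detected in the streak-like state in 50.0% of the 6 Type III barcodes, 74.5% of Type II and 76.9% of Type I barcodes after thinning, against 87.3%, 82.4% and 83.6% of epiblast barcodes. Barcodes under 2000 UMIs had 205.8, 215.0 and 172.9 CPM of Epcam, of the size of its streak-like levels. The part of free RNA in this detection was not tested either.

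TE had 363.9, 403.9 and 348.7 CPM of Epcam in Types III, II and I, above every epiblast library. TMM scaling lowers TE over epiblast by 0.35 on the log2 scale relative to plain totals. The fold was 0.02 ± 0.08 (adjusted p = 0.843) with TMM and 0.37 (adjusted p = 0.00234) with plain totals, so its call depends on the scaling. Over visceral endoderm TE was higher under TMM (0.73 ± 0.10, adjusted p = 2.006e-05). Scaling also moved the shares of higher calls among all genes called: for TE over epiblast 47.0% were higher with TMM and 73.4% with plain totals, for streak-like over epiblast 54.1% and 69.3%, and for TE over visceral endoderm 48.0% and 60.5%.

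Dsp set TE and both endoderm states apart from epiblast. TE had 70.2 CPM in Type III, 71.7 in Type II and 58.3 in Type I, visceral endoderm 90.4, 59.7 and 54.0 CPM, and early PrE 32.1, 38.0 and 33.7 CPM, against 4.15, 4.83 and 5.50 CPM in epiblast. Each of these libraries lay above all 3 epiblast libraries. The fold change over epiblast was 3.41 ± 0.20 in TE (adjusted p = 7.976e-09), 3.36 ± 0.20 in visceral endoderm (adjusted p = 3.769e-09) and 2.67 ± 0.20 in early PrE (adjusted p = 4.416e-08). After thinning Dsp was detected in 32.5% to 43.1% of TE barcodes, against 4.36% to 6.78% of epiblast barcodes. In barcodes under 2000 UMIs Dsp stood at 26.1, 25.7 and 36.3 CPM, above the epiblast levels. Visceral endoderm was higher than early PrE (0.69 ± 0.17, adjusted p = 0.0133), a call lost without Type II (0.73, adjusted p = 0.0742).

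In the streak-like state Dsp differed between the libraries, with 4.02 CPM (2 UMIs) in Type III, 11.2 in Type II and 29.5 in Type I. The fold over epiblast was 1.83 ± 0.30 (adjusted p = 0.000389, edgeR), 1.13 without Type I and 2.42 without Type II. Type I, the highest for Dsp, was also the highest for visceral endoderm markers in its streak-like sum. Its 11 barcodes that also meet another lineage rule had 56.0 CPM of Dsp and 2892 CPM of these markers, and its other 41 had 17.5 and 37.2 CPM. With such barcodes left out of both libraries the fold was 1.32 (adjusted p = 0.000391).

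Jup was lowest in the streak-like state. It had 66.3, 61.9 and 48.3 CPM in TE of Types III, II and I, 46.4, 45.6 and 39.6 CPM in visceral endoderm and 66.6, 48.9 and 45.0 CPM in early PrE, against 44.4, 34.1 and 38.0 CPM in epiblast. The lowest TE and early PrE libraries lay just above the highest epiblast library, and visceral endoderm overlapped epiblast. Early PrE over epiblast gave 0.29 ± 0.11 (adjusted p = 0.0362), which was lost without Type II (0.24, adjusted p = 0.121) or Type III (0.23, adjusted p = 0.127). TE gave 0.26 ± 0.11 (adjusted p = 0.064), and 0.60 (adjusted p = 0.000542) with plain totals. Streak-like sums had 30.1, 17.4 and 26.8 CPM, all below epiblast (-0.85 ± 0.17, adjusted p = 0.00205); without Type II the fold was -0.56 with adjusted p = 0.0942. In the streak-like state Dsp and Jup, which share the desmosomal plaque, had fold changes of opposite sign.

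Of the 8 desmosome partners tested, 6 were higher in TE than in epiblast and 0 lower, where 27.1% of all genes were higher and 30.5% lower, with a median of 1.84 on the log2 scale, against -0.03 over all genes. Pkp4 (0.20) and Evpl (-0.35) did not pass the test. They included the desmosomal cadherins Dsc2 (3.52) and Dsg2 (1.45) and the plaque proteins Pkp2 (2.00) and Pkp3 (1.93). In early PrE 4 were higher and 1 lower (median 0.45), and in visceral endoderm 4 and 1 (median 0.06), so 5 of 8 were called in each, below the 69.5% and 73.3% of all genes called. Dsg2 reached 80.6, 86.5 and 100.7 CPM in early PrE of Types III, II and I, 127.6, 87.5 and 97.3 CPM in visceral endoderm and 50.1, 50.1 and 45.0 CPM in TE, against 15.8, 14.1 and 12.6 CPM in epiblast. Pkp2 was highest in TE, at 100.8, 101.6 and 70.6 CPM, against 24.6, 29.3 and 26.6 CPM in visceral endoderm; the fold of TE over visceral endoderm was 1.48 ± 0.13 for Pkp2 and -1.12 ± 0.14 for Dsg2 (adjusted p = 2.163e-07 and 9.538e-06, edgeR). Streak-like sums had 1 partner higher, Dsc2 (2.01 ± 0.38, adjusted p = 0.00109), and 0 lower.

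Vim was highest in the streak-like state and lowest in epiblast. Streak-like sums had 311.2 CPM in Type III, 265.8 in Type II and 196.3 in Type I, against 19.2, 18.5 and 12.5 CPM in epiblast. All 3 lay above every sum of every other state, and the fold over epiblast was 3.78 ± 0.36 (adjusted p = 4.027e-06, edgeR, Types II and I). After thinning, Vim was detected in 58.2% of Type II and 57.7% of Type I streak-like barcodes, against 15.3% and 10.1% of epiblast barcodes. Blood and endothelium markers summed to 8.03, 15.0 and 10.8 CPM in streak-like sums of Types III, II and I, against 16.7, 15.8 and 19.0 CPM in epiblast. Of the 6 tested, 1 was higher and 1 lower than in epiblast, where 31.8% of all genes were called. Their median was 1.2 on the log2 scale, against 0 over all genes. The epiblast sum is not free of these markers: Pecam1 and Cldn5 were lower in TE than in epiblast (-3.65 and -3.61). A sum below that of epiblast thus does not show that blood or endothelium cells are absent. In Type I, 1 streak-like barcode had at least 3 of the 8 markers and held 15.95% of that sum's Vim UMIs. Without it Vim was 180.5 CPM in Type I. In single streak-like barcodes the median was 132.9 CPM in Type II and 116.1 in Type I, against 0 in epiblast.

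TE, visceral endoderm and early PrE had Vim levels between those of epiblast and the streak-like state. TE had 30.0, 52.8 and 63.0 CPM in Types III, II and I (1.28 ± 0.33 over epiblast, adjusted p = 0.00478), a call that was lost without Type II (1.36, adjusted p = 0.0512). The median TE barcode had 0 Vim, and the top 5% of TE barcodes held 73.8%, 74.9% and 55.6% of the state's Vim UMIs. Visceral endoderm had 55.5, 42.3 and 48.0 CPM (1.41 ± 0.35, adjusted p = 0.0026, Types II and I). In barcodes under 2000 UMIs Vim stood at 53.5, 44.9 and 57.0 CPM.

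Early PrE had 138.9, 63.5 and 51.7 CPM of Vim in Types III, II and I, and a fold over epiblast of 2.07 ± 0.33 (adjusted p = 6.865e-05). A few barcodes carried much of this. Those with at least 3 of 8 blood and endothelium markers detected were 2 in Type III, 3 in Type II and 1 in Type I. At 2984, 2497 and 2811 CPM, they held 82.2%, 39.1% and 17.2% of the early PrE Vim UMIs. Summed over the 8 markers, early PrE had 54.3, 10.8 and 6.73 CPM, with Hbb-bh1 and Gata1 at 0 in Types III and II, against 16.7, 15.8 and 19.0 CPM in epiblast. Of the 6 tested, 2 were higher and 2 lower than in epiblast, where 69.5% of all genes were called. The sums thus mix markers that went in opposite directions. Cdh5, the endothelial cadherin, was at 15.1, 2.67 and 2.11 CPM in early PrE and at 0 counts in epiblast. With the marked barcodes left out of every state, an alternative chosen after seeing the data, early PrE had 25.7, 39.0 and 42.9 CPM of Vim. The fold over epiblast was then 1.03 (adjusted p = 0.00109), and visceral endoderm over early PrE was 0.18 rather than -0.66, and neither of these passed the test (adjusted p = 0.628 and 0.214). Markers of two-cell-like cells were also uneven in early PrE, at 578.3, 38.0 and 0.544 CPM summed in Types III, II and I, against 4.15, 1.03 and 0.917 CPM in epiblast, and their part in the early PrE values was not tested. Parietal endoderm markers summed to 5745, 5901 and 6486 CPM in early PrE and 4807, 4671 and 4832 CPM in visceral endoderm of Types III, II and I, with 6 of 7 tested higher than epiblast in each and Thbd at or near 0, against 110.9, 165.4 and 150.1 CPM in epiblast. Their part in the Vim values of both states was not tested either. The rise of Vim in the streak-like state was 3.56 with the same barcodes left out.

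**Figure D2:**
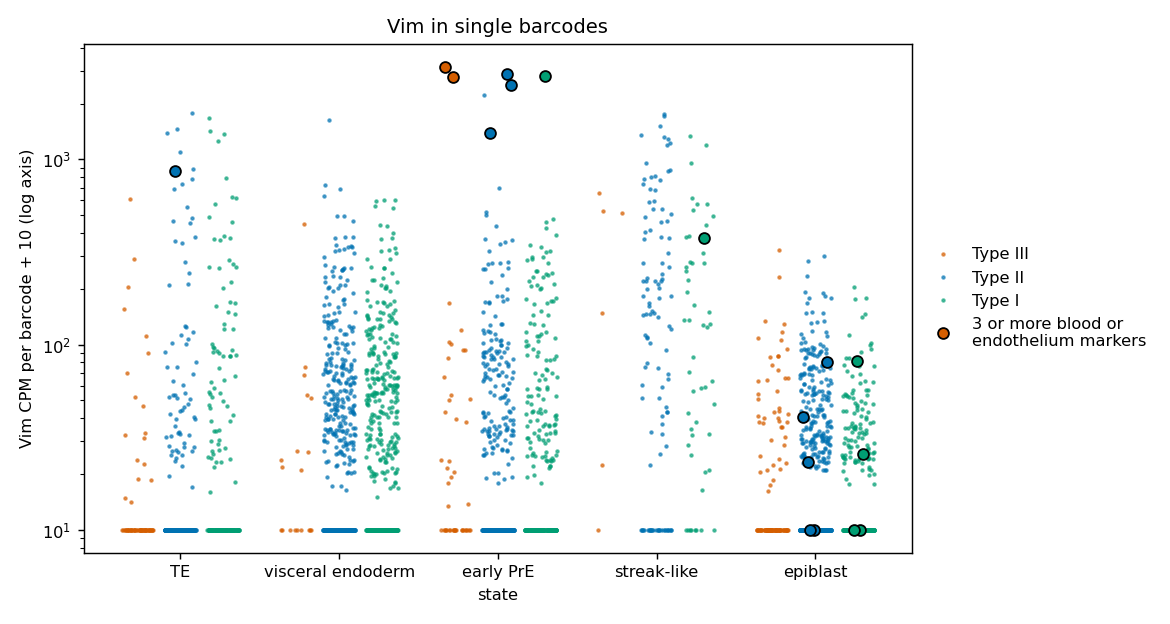
Vim CPM of each barcode plus 10 (log axis) by state, coloured by library, with ringed points for barcodes that have 3 or more of 8 blood and endothelium markers. Ringed early PrE barcodes lie far above most others of that state, while ringed epiblast barcodes have little Vim.

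Over all members, TE over epiblast called 3 of 7 higher and 1 lower, where 57.6% of all genes were called, 27.1% higher and 30.5% lower. Early PrE over epiblast called 3 higher and 3 lower, where 69.5% of all genes were called, 35.6% higher and 33.9% lower. Visceral endoderm over epiblast called 2 higher and 2 lower, where the shares of all genes were 73.3%, 36.9% and 36.4%. The counts for TE and visceral endoderm, 4 of 7 each, were near or below the share of all genes. Streak-like over epiblast called all 7, 3 higher and 4 lower, where 31.8% of all genes were called, 17.2% higher and 14.6% lower. Visceral endoderm over early PrE called 2 higher (Cdh3 and Dsp) and 0 lower, where 17.9% of all genes were called, 9.19% higher and 8.74% lower. TE over visceral endoderm called 3 higher and 0 lower, where 62.4% of all genes were called, 29.9% higher and 32.4% lower. The 3 were Cdh1 (0.65 ± 0.09, adjusted p = 3.04e-05, edgeR), Cdh3 (0.60 ± 0.19, adjusted p = 0.0131) and Epcam, and the Cdh3 call was lost without Type II (0.46, adjusted p = 0.253). The comparisons with epiblast share the epiblast sums.

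**Figure D3:**
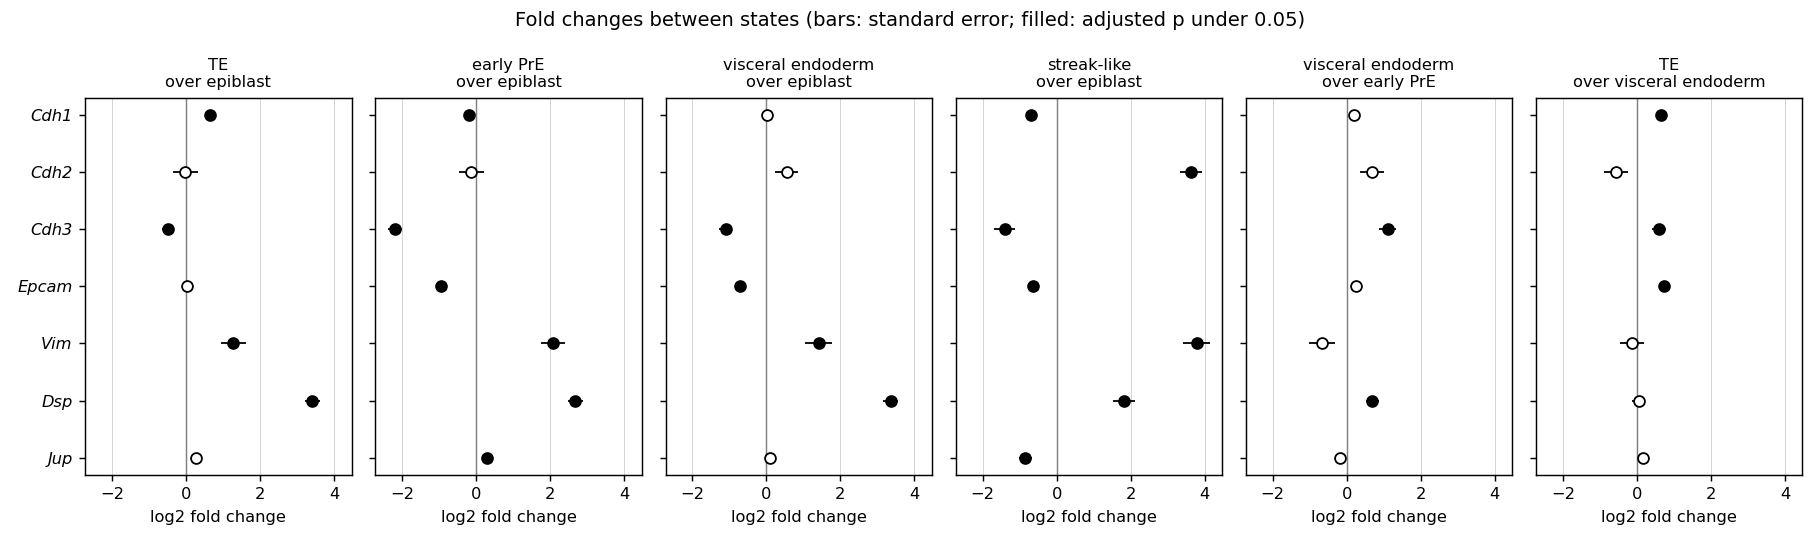
Log2 fold change of each gene in 6 comparisons of states, with its standard error; filled points passed an adjusted p of 0.05. The largest values are those of Vim (3.78) and Cdh2 (3.63) in the streak-like state and of Dsp in TE (3.41) and visceral endoderm (3.36).

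Genes of the same pathways were counted in the streak-like state, where 17.2% of all genes were higher than in epiblast and 14.6% lower. Of 8 mesenchymal transcription factors tested 6 were higher than in epiblast and 0 lower (median 1.94, against 0 over all genes). Snai1, a repressor of Cdh1, had 18.1, 21.6 and 11.1 CPM in Types III, II and I, against 4.01, 3.48 and 3.94 CPM in epiblast (2.10 ± 0.25, adjusted p = 3.058e-05, edgeR). Zeb2 (2.97), Twist1 (1.78) and Tcf4 (1.01) were the other genes with the lowest p. Of 9 epithelial transcription and splicing factors 0 were higher and 6 lower (median -1.18). Grhl2, an activator of epithelial junction genes, had 2.01, 4.18 and 4.22 CPM, against 13.1, 20.4 and 18.1 CPM in epiblast (-2.21 ± 0.28, adjusted p = 4.14e-05), and Klf5 (-1.18), Grhl3 (-1.80) and the splicing factor Esrp1 (-0.66) were also lower. All 9 matrix and cytoskeleton genes tested were higher (median 1.56), among them fibronectin (Fn1, 1.41), Sparc (1.94), the protease Mmp14 (1.56) and smooth muscle actin (Acta2, 5.05). Sparc is also a marker of parietal endoderm, of which 6 of 7 tested markers were higher here, at 182.7, 369.3 and 716.1 CPM summed in Types III, II and I, against 110.9, 165.4 and 150.1 CPM in epiblast. The part of these and the visceral endoderm markers in the values was not tested. Of 11 catenin and adherens junction genes 1 was higher (Ctnnd1, 0.47) and 2 lower, near the 31.8% of all genes called.

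In TE, where 27.1% of all genes were higher than in epiblast and 57.6% were called, 5 of 9 epithelial factors were higher and 0 lower, led by Esrp2 (2.50) and Grhl3 (1.72), and 7 of 11 catenin and adherens junction genes were higher, among them Ctnna1 (1.02) and Ctnnd1 (0.92), with Ctnnal1 lower (-1.25). Mesenchymal factors in TE were 4 of 8 higher and 0 lower, so the epithelial and mesenchymal counts of called genes lay near the share of all genes called. One of the mesenchymal factors, Snai2, had 0.321, 2.03 and 5.50 CPM in TE of Types III, II and I, against 0 counts, 0.277 and 0.270 CPM in epiblast. The Type III value lies under the 0.482 CPM that 3 UMIs would give in that sum. Matrix and cytoskeleton genes in TE were 7 of 9 higher and 2 lower, the higher ones including Acta2 (5.80) and Tagln (4.87). In early PrE and visceral endoderm Grhl2 was lower than in epiblast by -2.92 ± 0.20 and -3.68 ± 0.21 (adjusted p = 1.193e-08 and 1.984e-09, edgeR), while Dsp was higher there.

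Both endoderm states had a further cadherin. Cdh6, K-cadherin, had 53.8, 63.2 and 72.4 CPM in visceral endoderm of Types III, II and I and 35.9, 43.1 and 51.9 CPM in early PrE, against 0 counts, 0.712 and 0.809 CPM in epiblast. The fold over epiblast was 6.48 ± 0.23 in visceral endoderm and 5.98 ± 0.23 in early PrE (adjusted p = 4.407e-11 and 9.147e-11, edgeR), and TE had 0.482 to 1.30 CPM. In early PrE all 10 genes of a list around Epcam were higher than in epiblast (median 1.35, against 0.02 over all genes) while Epcam itself was lower. Of all genes, 35.6% were higher. The claudin Cldn7, which binds Epcam, rose by 1.65 ± 0.15 there (adjusted p = 2.922e-07, edgeR). Visceral endoderm, where Epcam was lower too, had 9 of the 10 higher and 0 lower (median 1.31), with 36.9% of all genes higher. TE had 8 of the 10 higher and 0 lower (median 1.52), with 27.1% of all genes higher.

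Single barcodes showed how Cdh1 and Cdh2 were shared out in the streak-like state. After thinning, both were detected in 6.36% of 110 Type II barcodes and in 1.92% of 52 Type I barcodes, where the product of their single shares is 11.8% and 7.32%. In Type II, Cdh1 was detected in 20.6% of the 34 barcodes with Cdh2 (95% binomial interval 8.70% to 37.9%), against 46.1% of the 76 without Cdh2 (34.6% to 57.9%). In Type I the shares were 11.1% of 9 (0.281% to 48.3%), against 48.8% of 43 (33.3% to 64.5%). The intervals overlap in each library, and the difference was not tested. Of the 6 Type III barcodes 1 had both, 3 had Cdh1 alone and 1 had Cdh2 alone. Vim was detected in Type II in 76.5% of barcodes with Cdh2, against 50.0% without it, and in Type I in 66.7% against 55.8%. Epcam was detected in 70.3% of Type II and 70.0% of Type I barcodes with Vim, against 80.4% and 86.4% of those without it. In TE of Type II, Epcam was detected in 69.4% of 36 barcodes with Vim (51.9% to 83.7%), against 95.2% of 228 without it (91.5% to 97.6%), and the shares were 85.7% against 93.9% in Type III and 84.8% against 89.2% in Type I. Barcodes of a library are not replicates, and all intervals here cover counting error only.

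**Figure D4:**
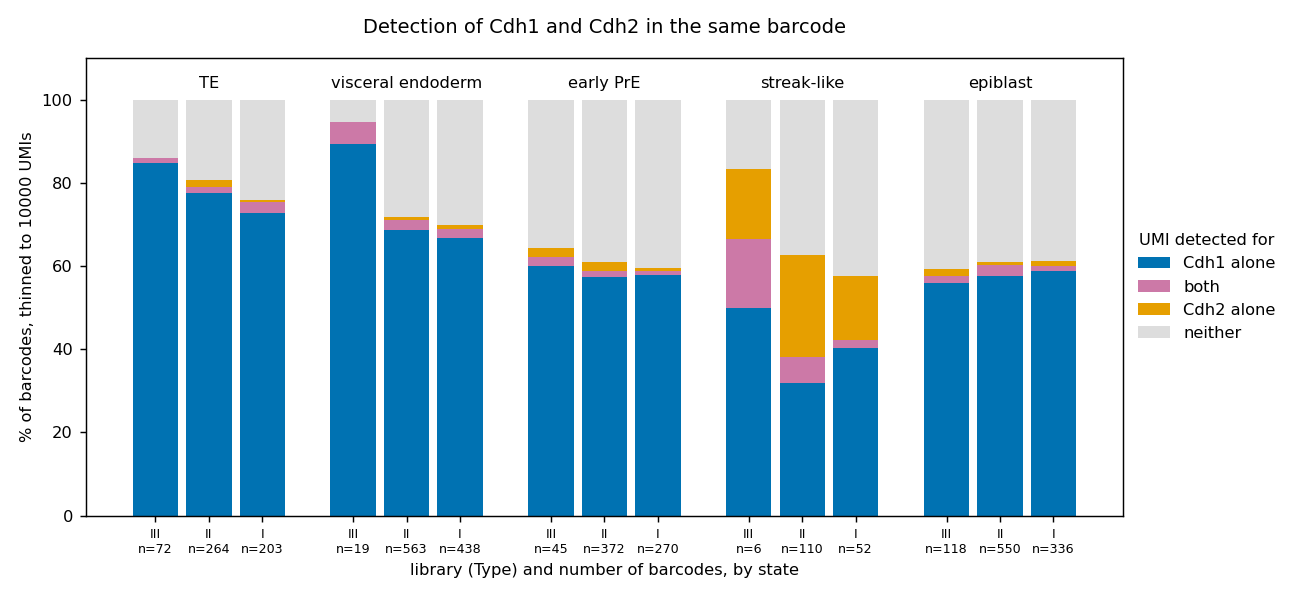
Percent of barcodes, each thinned to 10000 UMIs, with a UMI of Cdh1 alone, of both cadherins, of Cdh2 alone or of neither, by state and library. Cdh2 without Cdh1 makes up 24.5% of streak-like barcodes in Type II and 15.4% in Type I, against 0.727% and 1.19% of epiblast barcodes.

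Between types there is 1 library each, so differences have no replicate check and carry no p. The bar for a call was a 2-fold difference in a gene that reached 50 CPM in either library. Type III over Type I called Vim lower in TE (-1.07, 95% interval -1.31 to -0.83, on the log2 scale), where 0.306% of genes were lower and 0.917% higher. This call rests on few barcodes. The top 5% of TE barcodes, 4 in Type III and 11 in Type I, held 73.8% and 55.6% of the Vim UMIs. The interval covers counting error only. Type III over Type I called Vim higher in early PrE (1.43, 1.27 to 1.58), where 1.17% of genes were higher and 0.389% lower. That value rests on the marked barcodes, 2 of which hold 82.2% of the Type III Vim UMIs: without them early PrE had 25.7 CPM in Type III, against 42.9 CPM in Type I, so the direction turned and the call ended. It called 0 of 4 members measured in visceral endoderm (0.522% of genes higher, 0.244% lower), 0 of 3 in the streak-like state (1.7% and 3.29%) and 0 of 2 in epiblast (0.129% each way). Type II over Type I called 0 of 5 members in TE (0.213% of genes higher, 0.0711% lower), 0 of 3 in visceral endoderm (0% each way), 0 of 3 in early PrE (0.0747% and 0%), 0 of 3 in the streak-like state (0.158% and 1.35%) and 0 of 2 in epiblast (0% each way). Cdh2 in the streak-like state, below the 50 CPM needed, was 1.25 higher in Type II than in Type I (0.85 to 1.66).

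The genes whose levels ran most like each member over the 13 library and state sums, centred within each library, were found by Pearson's r of log2(CPM + 10) over 3712 genes (3713 for Cdh2 and Cdh3); the points share libraries and depth, and the values are descriptions. For Cdh2 they were Idnk (0.975), Rspo3 (0.973) and Pcmtd1 (0.967), for Dsp Tln1 (0.991), Arhgap10 (0.99) and Atxn10 (0.989), and for Cdh1 Sbno1 (0.973), Hic2 (0.96) and Wasf2 (0.956). Epcam ran most like Supt20 (0.984) and Necap1 (0.977), Jup like Etl4 (0.98), Fzr1 (0.979) and Ostf1 (0.961), Vim like Raly (0.942), Mogat2 (0.932) and Nudt9 (0.924), and Cdh3 like Aebp2 (0.942), Uri1 (0.933) and Fam136a (0.924). The list for Vim includes the levels of the marked early PrE barcodes. On mm10 the other members lie at chr17:87635979-87651129 (Epcam, + strand), chr2:13573927-13582826 (Vim, + strand), chr13:38151294-38198577 (Dsp, + strand, overlapping the annotated gene Gm10129 on the other strand) and chr11:100368958-100397763 (Jup, - strand).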

How the data were processed

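Gene by barcode matrices of whole UMI counts were deposited for 3 single-cell 3' libraries, written by Cell Ranger, version 6.0.1, per the file headers, on mm10 per the submitters' processing notes. The rule by which a barcode counted as a cell was not stated. Doublets were not removed, and depths are given above. From the counts, state sums of at least 20 barcodes (13 sums) were fitted together with edgeR 4.0.16 in R 4.3.3 (filterByExpr, TMM, quasi-likelihood test, library as block; common dispersion 0.0061). DESeq2 1.42.0 was an alternative, among 19 settings. SE is the fold change divided by the root of F. Intervals are exact at 95%. Named genes are the members, up to 4 genes per list and comparison with the lowest p among those called, and 3 most alike per member (2 genes these rules name are not reported here); further levels of Cdh5, Dsg2 and Pkp2 were chosen after their values were seen. The members and lists were chosen with earlier results of these data known, and the E-box search after the sequences were seen. Tested on simulated data for TE over epiblast, the fit found 74.6% of genes changed 1.5-fold and 100% of those changed 2-fold, with 7 false calls among 13090 genes. For streak-like over epiblast it found 50.7% and 89.6%, with 5 among 13054. All simulated sums had the epiblast profile, with a small set of genes changed as often up as down. The dispersion was 0.01, with no library effect. Such data lack the broad differences between states on which the scaling acts, so errors of scaling were not tested. Coordinates are from GENCODE on mm10.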

Additional observations from a re-analysis of the deposited data

Results flagged for a closer look

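In 3 comparisons a member went in opposite directions in different types. These are log2 ratios of summed CPM with counting intervals that leave out 0, and the differences between types were not tested. Cdh1 in early PrE over epiblast was 0.20 in Type III and -0.20 in Type I. Vim in TE over visceral endoderm was -0.89 in Type III and 0.39 in Type I. Dsp in TE over visceral endoderm was -0.37 in Type III and 0.26 in Type II. The Type III visceral endoderm sums behind the Vim and Dsp values rest on 19 barcodes, of which 1 barcode held 73.2% of the Vim UMIs and 44.3% of the Dsp UMIs.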

How the results depend on the processing

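Over 42 member fold changes and the alternatives run, 691 of 777 values kept their direction and their side of the threshold, 36 lost a call, 21 gained one and 29 changed sign, and 0 of these sign changes were in a called result. The sign changes were these. In TE over epiblast Cdh2 was 0.03 and 0 at minimums of 5000 and 20000 UMIs, 0.02 at 10% mitochondrial UMIs, 0.38 with state thresholds divided by 2, 0.1 with barcodes meeting more than 1 rule left out, 0.18 without the 5% deepest barcodes, 0.32 with plain totals and from -0.43 to 0.24 leaving out 1 library each (0.24 without Type III), and Epcam was from -0.01 (without Type II) to 0.06. In early PrE over epiblast Cdh2 was 0.45 with barcodes meeting more than 1 rule left out, 0.02 thinned and 0.01 with plain totals. In visceral endoderm over epiblast Cdh1 was -0.02 at 20000 UMIs, -0.03 with DESeq2 and with its size factors, -0.05 with no library block, -0.01 with sums of at least 5 barcodes and from -0.05 (without Type III) to 0.07 leaving out 1 library each. In visceral endoderm over early PrE Vim was 0.18 without the marked barcodes. In TE over visceral endoderm Vim was 0.18 with thresholds divided by 2, 0.12 thinned, 0.06 with plain totals, 0.02 without the marked barcodes and from -0.33 to 0.17 (without Type III) leaving out 1 library each; Dsp was -0.11 at 5000 UMIs, -0.16 with thresholds divided by 2, -0.09 thinned and -0.1 with sums of at least 5 barcodes; and Jup was -0.1 thinned.

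Thinning, which leaves 11228 genes to test, lowered the genes called to 5124 in TE over epiblast (8084 in full), 2108 in streak-like over epiblast (4462) and 1611 in visceral endoderm over early PrE (2516), where thresholds divided by 2 gave 4409; the cause of the last was not tested. Leaving out 1 library each gave from 1481 (without Type II; 2601 without Type I) to 4579 calls in streak-like over epiblast, from 233 (without Type II; 1262 without Type I) to 2519 in visceral endoderm over early PrE and from 5409 (without Type II) to 8842 in TE over visceral endoderm (8752 in full). Leaving out barcodes that meet more than 1 rule left too few visceral endoderm barcodes, so those comparisons have no value there. Without the library block (no replicate block), all states of a library coming from the same sample, the counts stayed within 1.5 times, from 1759 to 9847 genes. Plain totals, sums of at least 5 barcodes and both sets of left-out barcodes were chosen after seeing the data. In the sums tested Cdh3 rests on 7 to 217 UMIs and, outside the streak-like state, Cdh2 on 9 to 126, so depth limits the smaller of them. With 1 library per type, type differences are left without a test.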

Other observations

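The 251 kept barcodes that met no state rule held Vim and Cdh2 above their epiblast levels. Vim was 425.2 CPM in Type III (12 barcodes), 130.7 in Type II (133) and 212.6 in Type I (106), against 19.2, 18.5 and 12.5 CPM in epiblast. Cdh2 stood at 12.4, 21.9 and 22.5 CPM, between its epiblast and streak-like levels in Types III and II. Epcam was at 281.7, 281.2 and 266.5 CPM, close to its epiblast level. Of these barcodes 2, 7 and 4 had at least 3 of the 8 blood and endothelium markers and held 63.6%, 41.9% and 31.8% of the Vim UMIs; without them Vim was 196.7, 79.6 and 149.7 CPM. Two-cell-like markers summed to 825.6, 28.2 and 182.7 CPM in these barcodes, against 4.15, 1.03 and 0.917 CPM in epiblast, and their part in the values was not tested. Zeb2, a repressor of epithelial genes, was at 23.5, 19.6 and 16.8 CPM, against 1.25, 2.22 and 2.10 CPM in epiblast. Cdh11, a cadherin of mesenchyme, was at 6.02 CPM in Type II and 6.15 in Type I, with 0 counts in Type III. These barcodes form no state of the rule and were not tested.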
